A study of Mus musculus with 7 samples.

Results

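Myoglobin (Mb), lactate dehydrogenase B (Ldhb), the cytosolic creatine kinase of muscle (Ckm) and mitochondrial creatine kinase 2 (Ckmt2) were followed in serial cryosections of mouse tibialis anterior, a fast muscle of the lower leg. The 4 genes were taken by name from the 53083 gene names shared by all 7 section tables. All 4 had counts in every muscle and passed the low-count filter of every test. The tables come from 3 muscles labelled DMD, 2 labelled WT and 2 labelled Ctr, in a series on Duchenne muscular dystrophy, the muscle disease caused by loss of dystrophin. The labels give the tissue, with no strain, age, sex or allele, and do not say whether each muscle is from its own animal. Every p-value therefore rests on the spread among these 7 muscles alone. The file headers name mdx for the DMD muscles, pax7 for the WT muscles and hDMD for the Ctr muscles, without explaining these names. The tables of the DMD and Ctr muscles had a row for human dystrophin, with 812, 257 and 338 counts in DMD muscles and 304 and 306 in Ctr muscles, and the WT tables had none. Mouse Dmd stood at 9.25, 14.8 and 9.85 scaled CPM (counts relative to the scaled library size) in DMD muscles, 16.3 and 13.2 in WT muscles and 9.56 and 15.9 in Ctr muscles. The groups overlapped, and the count of a whole gene cannot check a mutation within it.

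The members belong to the energy supply of the muscle fibre. Myoglobin binds oxygen in the cytosol, above all in oxidative fibres. Ckm sits at the myofibrils and regenerates ATP from phosphocreatine, while Ckmt2 sits in the mitochondrial intermembrane space and charges creatine with phosphate. Lactate dehydrogenase is built from muscle-type subunits (Ldha) and heart-type subunits (Ldhb), and enzyme rich in Ldhb is typical of oxidative tissue. Fast glycolytic fibres of mouse limb muscle carry the 2B myosin Myh4, and the more oxidative fast fibres carry the 2A myosin Myh2.

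In the tables' GRCm38 annotation Mb lies on chromosome 15 at 77015487 to 77050670 on the minus strand. Ldhb lies on chromosome 6 at 142490249 to 142507957 on the minus strand. Ckm lies on chromosome 7 at 19404776 to 19422841 on the plus strand, and Ckmt2 on chromosome 13 at 91853387 to 91876885 on the minus strand. No other gene overlapped their exons on the same strand, and the authors counted with strand, per the file headers. Promoters are shown because Mb, Ldhb and Ckmt2 moved together along the muscle, as described further on, and Ckm did not. RefSeq promoters (GRCm38.p6) matched 4 of 4 members. The letters are the 250 bases before the RefSeq start, read on the gene's strand. For Mb and Ckm the printed window lies within the gene span given above. Capitals mark the E-box CANNTG, the letters bound by myogenic bHLH factors such as MyoD, a pattern that reads the same on both strands. Of 3 starts listed for Mb, 1 is printed, at chr15:77022788-77023037 on the minus strand. The windows at its unprinted starts held 2 and 3 E-boxes. The other printed windows are chr13:91876886-91877135 on the minus strand for Ckmt2 and chr6:142507958-142508207 on the minus strand for Ldhb. That of Ckm is chr7:19410844-19411093 on the plus strand.
Mb: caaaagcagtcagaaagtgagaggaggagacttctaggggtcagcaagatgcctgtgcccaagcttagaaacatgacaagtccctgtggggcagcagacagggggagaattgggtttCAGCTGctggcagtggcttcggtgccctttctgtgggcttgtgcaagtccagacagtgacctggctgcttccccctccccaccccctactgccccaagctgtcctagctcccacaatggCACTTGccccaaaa
Ckmt2: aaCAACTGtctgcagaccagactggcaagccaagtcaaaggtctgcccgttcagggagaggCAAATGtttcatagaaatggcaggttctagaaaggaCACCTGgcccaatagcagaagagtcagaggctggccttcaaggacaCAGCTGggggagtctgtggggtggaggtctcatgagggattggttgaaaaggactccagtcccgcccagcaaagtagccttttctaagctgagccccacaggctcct
Ldhb: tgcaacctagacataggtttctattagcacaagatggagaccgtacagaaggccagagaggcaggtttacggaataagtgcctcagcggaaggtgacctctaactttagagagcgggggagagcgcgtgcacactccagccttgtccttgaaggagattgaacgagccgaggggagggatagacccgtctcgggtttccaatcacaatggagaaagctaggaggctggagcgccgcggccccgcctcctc
Ckm: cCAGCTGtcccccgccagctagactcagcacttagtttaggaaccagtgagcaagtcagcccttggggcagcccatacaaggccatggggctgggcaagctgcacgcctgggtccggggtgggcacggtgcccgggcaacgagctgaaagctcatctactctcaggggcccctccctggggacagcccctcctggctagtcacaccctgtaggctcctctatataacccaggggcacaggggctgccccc
The printed window held 2 E-boxes in Mb, 4 in Ckmt2, 0 in Ldhb and 1 in Ckm, and 66.2% of 32851 promoters of the same length held at least 1. The letters AAGGTCA, to which estrogen-related receptors bind, were searched on both strands. They occurred in none of these 4 windows and in 4.08% of all promoters.

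Of 525 sections, 422 passed the depth filter, 192 from DMD muscles, 114 from WT muscles and 116 from Ctr muscles. Kept sections summed to 11181994 to 41407203 counts per muscle. Mitochondrially encoded genes took 25.7% to 34.3% of the counts in DMD muscles, 41.6% to 45.9% in WT muscles and 29.4% to 30.4% in Ctr muscles. The WT tables were made with another annotation than the DMD and Ctr tables, so the WT group and its annotation cannot be told apart. Macrophage markers, all 10 detected in every muscle, summed to 205 to 1404 CPM in DMD muscles, 58.8 to 59.3 in WT muscles and 65.4 to 99.2 in Ctr muscles. The 8 markers of fibrotic matrix summed to 753 to 2372 CPM in DMD muscles, 368 to 392 in WT muscles and 253 to 457 in Ctr muscles, with 1 at 0 in Ctr 2. The 6 markers of regenerating fibres summed to 21.1 to 106 CPM in DMD muscles, 3.15 to 4.51 in WT muscles, where 1 marker was at 0 in each, and 7.29 to 11 in Ctr muscles, where 2 or 3 were at 0. The tendon list summed to 27.9 to 46.6 CPM in DMD muscles, 29.5 and 34.3 in WT muscles and 6.17 and 12.7 in Ctr muscles, with 5 of 7 tested genes higher in DMD than in Ctr muscles and 1 higher and 1 lower against WT. Of the smooth muscle genes 2 of 4 were lower against Ctr and 1 of 4 against WT. Erythroid genes summed to 4137 to 5406 CPM in DMD muscles, 3615 and 3904 in WT muscles and 6711 and 20660 in Ctr muscles, where Ctr 2 stood apart, and 2 of 5 were lower against Ctr. Of all genes tested, 7.17% were higher and 5.49% lower in DMD than in Ctr muscles. Against WT, 8.25% were higher and 6.92% lower. The macrophage, matrix and regenerating fibre sums were higher in every DMD muscle than in every WT and Ctr muscle. The tendon sums of the WT muscles lay within the DMD range, and 0 of 5 erythroid genes passed against WT. The part of all these markers in the results on DMD muscles below was not tested. DMD 3 had the lowest macrophage, matrix and regenerating fibre sums of the DMD muscles, and its levels of Mb, Ldhb and Ckmt2 are given below beside those of DMD 1 and DMD 2.

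Mb, Ldhb and Ckmt2 were lower in DMD than in WT muscles, and Mb and Ldhb were lower in DMD than in Ctr muscles. Mb had the largest change of the 4 members in both comparisons. It had 497, 794.5 and 623 scaled CPM in DMD muscles, 2779 and 2990 in WT muscles and 1851 and 1503 in Ctr muscles. Every DMD muscle lay below every WT and Ctr muscle. Mb was 4.52-fold lower in DMD than in WT muscles, a log2 change of -2.18 ± 0.25 (SE; edgeR quasi-likelihood test, Benjamini-Hochberg adjusted p = 0.0024). Against Ctr muscles it was 2.63-fold lower, a log2 change of -1.39 ± 0.25 (edgeR, adjusted p = 0.014). The call against Ctr was lost without Ctr 1, where the log2 change was -1.24 (edgeR, adjusted p = 0.14). In sums over a muscle, fewer fibres with a transcript and less of the transcript per fibre cannot be told apart.

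Ldhb had 13.5, 23.8 and 12.1 scaled CPM in DMD muscles, 51.97 and 51.68 in WT muscles and 31.95 and 32.44 in Ctr muscles. The DMD muscles were lowest, with no overlap, and the WT and Ctr pairs were each tight. The log2 change was -1.66 ± 0.27 against WT (edgeR, adjusted p = 0.0081) and -0.98 ± 0.27 against Ctr (edgeR, adjusted p = 0.046). The limma alternative took the mean CPM of the sections, also without TMM scaling, so it is a second unscaled setting. Against Ctr the edgeR adjusted p was 0.13 without DMD 1, 0.21 without Ctr 1 and 0.12 without Ctr 2, and the call was also lost without TMM scaling (adjusted p = 0.26), in limma (adjusted p = 0.16) and with only the DMD and Ctr muscles fitted in edgeR (adjusted p = 0.083). Against WT it was 0.080 without WT 1, 0.088 without WT 2 and 0.060 without TMM scaling.

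Ckmt2 had 375, 669 and 639 scaled CPM in DMD muscles, 1170 and 1279 in WT muscles and 943 and 936 in Ctr muscles. All 3 DMD muscles lay below the others, with DMD 1 lowest. The log2 change was -1.13 ± 0.27 against WT (edgeR, adjusted p = 0.025) and -0.74 ± 0.27 against Ctr (edgeR, adjusted p = 0.092), which did not pass. The call against WT was lost without WT 1 (edgeR, adjusted p = 0.15), without WT 2 (edgeR, adjusted p = 0.19), without TMM scaling (log2 -0.39; edgeR, adjusted p = 0.22) and in limma (log2 -0.40; adjusted p = 0.21). Against Ctr it passed without DMD 3 (edgeR, adjusted p = 0.036) and in DESeq2 (adjusted p = 0.040). The limma fit was unscaled too. There the median gene stood 0.60 higher on the log2 scale in DMD than in WT muscles. Relative to that median, Ckmt2 stood at -0.998 in limma.

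Ckm, the most abundant member, had 7738, 7696 and 8398 scaled CPM in DMD muscles, 13600 and 12510 in WT muscles and 12080 and 15100 in Ctr muscles. The DMD muscles were again below the other 4. The log2 change was -0.72 ± 0.24 against WT (edgeR, adjusted p = 0.067) and -0.77 ± 0.24 against Ctr (edgeR, adjusted p = 0.057), and neither passed. Both passed without DMD 3 (edgeR, adjusted p = 0.036 against WT and 0.027 against Ctr) and in DESeq2 (adjusted p = 0.0084 against WT and 0.0047 against Ctr). Without TMM scaling the sign against WT turned, to a log2 change of 0.03 (edgeR, adjusted p = 0.93).

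Against WT, 3 of the 4 members were lower in DMD muscles, where 6.92% of the 13746 genes tested were lower. Against Ctr, 2 of the 4 were lower, where 5.49% of genes were lower. The members, and the gene lists used below, were chosen with earlier results of these data known. Their counts beside the shares of all genes are therefore descriptions and no independent support. The median log2 change of the members was -1.40 against WT and -0.88 against Ctr, beside medians over all genes of 0.07 and 0.02. Both comparisons share the DMD muscles. For all 4 members the 3 DMD muscles lay below all 4 others, as they did for 12.1% of genes. This separation depended on the scaling factor TMM, which sets the bulk of genes level between muscles. In CPM without it, all 3 DMD muscles still lay below the others for Mb, 2 of 3 for Ldhb and for Ckmt2, and 1 of 3 for Ckm. Without it the median gene stood 0.82 higher on the log2 scale in DMD than in WT muscles, and 0.33 higher in DMD than in Ctr muscles. Relative to that median, the unscaled log2 changes against WT were -2.24 for Mb, -1.70 for Ldhb, -1.21 for Ckmt2 and -0.79 for Ckm. Against Ctr they were -1.42 for Mb, -0.96 for Ldhb, -0.79 for Ckmt2 and -0.80 for Ckm.

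**Figure D1:**
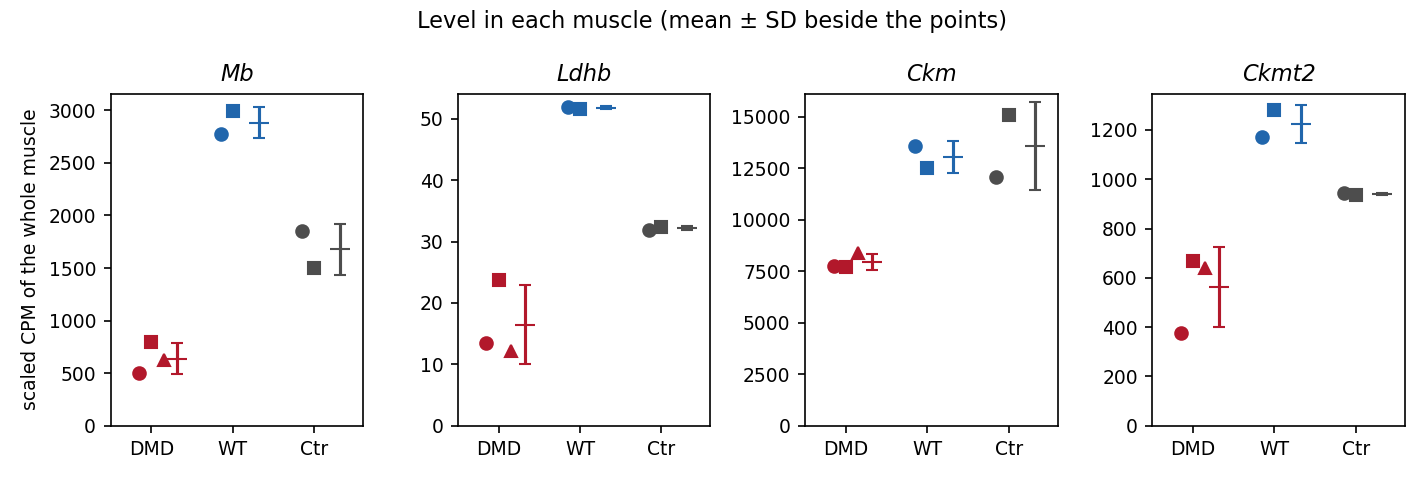
Scaled CPM of each member in each muscle, grouped as DMD, WT and Ctr, with a circle, square and triangle for replicates 1, 2 and 3 and the mean ± SD beside the points. In every panel the 3 DMD points lie below the 4 others; for Mb the highest DMD muscle has 794.5 and the lowest of the others 1503.

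WT and Ctr muscles were set against each other to see how far the 2 groups differ in these genes. None of the 4 members passed in edgeR, where 0.364% of genes did and 2481 genes had an unadjusted p under 0.05. The log2 differences, WT minus Ctr, were 0.78 for Mb (edgeR, adjusted p = 0.19), 0.69 for Ldhb (edgeR, adjusted p = 0.27), 0.38 for Ckmt2 (edgeR, adjusted p = 0.54) and -0.06 for Ckm (edgeR, adjusted p = 0.93). Both WT muscles lay above both Ctr muscles for Mb, Ldhb and Ckmt2, as for 27.2% of genes. The group means of these 3 thus rank DMD lowest, then Ctr, then WT, with no separation of the Ctr and WT neighbours by the test. For Ckmt2 the sign of the WT minus Ctr difference turned without TMM scaling (log2 -0.07) and in limma, which was also unscaled (log2 -0.10). Relative to the median over all genes, the difference was 0.39 without TMM scaling and 0.23 in limma.

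Ratios within a muscle do not depend on the scaling. For 1000 counts of Ldha there were 5.43, 9.33 and 3.02 counts of Ldhb in DMD muscles, 15.9 and 15.2 in WT muscles and 13.7 and 12.6 in Ctr muscles. The DMD muscles did not overlap with the others. Ldha itself had 2484, 2549 and 4018 scaled CPM in DMD muscles, 3262 and 3400 in WT muscles and 2336 and 2571 in Ctr muscles, with log2 changes of -0.14 against WT (edgeR, adjusted p = 0.75) and 0.30 against Ctr (edgeR, adjusted p = 0.49). Per length, Ldhb made up 1.13%, 1.93% and 0.633% of Ldha and Ldhb together in DMD muscles, 3.25% and 3.11% in WT muscles and 2.80% and 2.59% in Ctr muscles. Scaling by length assumes that counts grow with transcript length, which was not tested for these barcoded libraries. By counts as by length, the heart-type subunit was a small part of the lactate dehydrogenase transcripts in every muscle, and it was smallest in DMD 3.

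For 100 counts of Ckm there were 6.43, 10.3 and 7.42 counts of Mb in DMD muscles, 20.4 and 23.9 in WT muscles and 15.3 and 9.95 in Ctr muscles. DMD 2 lay just above Ctr 2. For 100 counts of Ckm there were 4.85, 8.70 and 7.61 counts of Ckmt2 in DMD muscles, 8.60 and 10.2 in WT muscles and 7.81 and 6.20 in Ctr muscles, with overlap. An exact permutation test of 3 against 2 muscles cannot give a two-sided p under 0.2. The ratios were planned as descriptions and were not tested in a model.

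Around the members, the creatine system held genes that rose in DMD muscles. Against WT, 2 of its 6 tested genes were higher, where 8.25% of all genes were, and 1, Ckmt2, was lower (median log2 0.63, beside 0.07 for all genes). Against Ctr, 3 of 6 were higher, where 7.17% of all genes were, and 0 lower (median log2 0.79, beside 0.02 for all genes). Gatm, which makes the creatine precursor guanidinoacetate, had 5.15, 2.87 and 3.58 scaled CPM in DMD muscles, 1.24 and 1.39 in WT muscles and 0.987 and 1.11 in Ctr muscles. Gamt, which methylates that precursor to creatine, had 12.9, 18.5 and 15.04 scaled CPM in DMD muscles, 8.78 and 6.80 in WT muscles and 4.50 and 5.70 in Ctr muscles. Both were higher in every DMD muscle than in every WT and Ctr muscle. The share of all genes separated in this direction is not given here, and in the lower direction it was 12.1%. Gatm changed by log2 1.58 against WT (edgeR, adjusted p = 0.019) and 1.91 against Ctr (edgeR, adjusted p = 0.0145), and Gamt by 0.98 against WT (edgeR, adjusted p = 0.027) and 1.60 against Ctr (edgeR, adjusted p = 0.0092). Ckb, the brain-type cytosolic creatine kinase, had 13.02, 15.2 and 4.80 scaled CPM in DMD muscles, 4.36 and 5.82 in WT muscles and 2.10 and 3.58 in Ctr muscles. It was 3.93-fold higher in DMD than in Ctr muscles (edgeR, adjusted p = 0.031) and at log2 1.12 against WT (edgeR, adjusted p = 0.11), where DMD 3 lay within the WT range. DMD 1 and DMD 2, the muscles with the higher macrophage sums, also had the higher Ckb. Among the DMD muscles Gatm was lowest in DMD 2 and Gamt in DMD 1. A link of these 3 genes to macrophages was not tested. The creatine transporter Slc6a8 stood at log2 0.27 against WT (edgeR, adjusted p = 0.51) and -0.02 against Ctr (edgeR, adjusted p = 0.96), and Ckmt1 was too low to be tested. Among 8 tested genes of the adenylate kinases and AMP cycle, the AMP deaminase Ampd3 was higher against WT (log2 2.02; edgeR, adjusted p = 0.013) and Ctr (log2 1.63; edgeR, adjusted p = 0.025). Against WT, Adssl1 and Adsl of the same list were lower, and Ak1 and Ampd1 passed in neither comparison.

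In lactate and pyruvate handling, 6 of 14 genes were lower in DMD than in WT muscles and 3 of 14 were lower in DMD than in Ctr muscles, with 0 higher in either (median log2 -0.67 against WT and -0.55 against Ctr, beside 0.07 and 0.02 for all genes). Ldhb itself is 1 of the genes counted in both, and 6.92% of all genes were lower against WT and 5.49% against Ctr. The lactate transporter Slc16a1 had 7.99, 4.81 and 4.97 scaled CPM in DMD muscles, 16.3 and 16.9 in WT muscles and 26.2 and 10.7 in Ctr muscles. Slc16a3, the lactate exporter of glycolytic fibres, had 101.8, 97.2 and 117 scaled CPM in DMD muscles, 193 and 160 in WT muscles and 238 and 230 in Ctr muscles. For both, every DMD muscle was below every other muscle, as for 12.1% of genes. Slc16a1 changed by log2 -1.46 against WT (edgeR, adjusted p = 0.027) and -1.63 against Ctr (edgeR, adjusted p = 0.023), and Slc16a3 by -0.74 against WT (edgeR, adjusted p = 0.033) and -1.15 against Ctr (edgeR, adjusted p = 0.011). Mpc1 and Mpc2, the subunits of the mitochondrial pyruvate carrier, were lower against WT (log2 -1.45 and -1.29; edgeR, adjusted p = 0.0039 and 0.0064). Against Ctr both stood at log2 -0.55 (edgeR, adjusted p = 0.088 and 0.090).

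Myh2 had 79.7, 53.9 and 53.5 scaled CPM in DMD muscles, 201 and 227 in WT muscles and 127 and 175 in Ctr muscles. It was lower against WT (log2 -1.78; edgeR, adjusted p = 0.0042) and Ctr (log2 -1.27; edgeR, adjusted p = 0.016). It was the only one of the 6 oxidative fibre genes that was lower, and the list did not move as one: 1 was higher and 4 passed in neither direction against WT, and 5 passed in neither direction against Ctr (median log2 -0.30 and -0.38). The gene that was higher was Tnni1, the slow troponin I, with 3.31, 11.1 and 2.40 scaled CPM in DMD muscles, 0.377 and 0.737 in WT muscles and 0.370 and 2.13 in Ctr muscles (log2 3.34 against WT; edgeR, adjusted p = 0.035; log2 2.20 against Ctr; edgeR, adjusted p = 0.095). The slow troponins Tnnt1 and Tnnc1 stood at log2 1.07 and 1.38 against WT and 0.51 and 0.80 against Ctr, and the slow myosin genes Myl2 and Myh7 at -2.15 and -1.68 against WT and -2.39 and -2.42 against Ctr, none of which passed in edgeR. Myh4 stood at log2 -0.09 against WT (edgeR, adjusted p = 0.84) and -0.44 against Ctr (edgeR, adjusted p = 0.28), and 0 of 10 fast fibre genes passed in edgeR in either comparison, with 3 at an unadjusted p under 0.05 against WT and 2 against Ctr. Of 16 nuclear-encoded mitochondrial oxidative genes, 5 were lower against WT, where 6.92% of all genes were, and 2 against Ctr, a share of the list not far from the 5.49% of all genes, with 0 higher (median log2 -0.63 against WT and -0.35 against Ctr). Among 8 genes of oxygen and lipid supply, 4 were lower and 1 higher against WT, and 5 were lower against Ctr (median log2 -0.87 against WT and -1.14 against Ctr). Fabp3, the fatty acid binding protein of heart and oxidative muscle, was lower in both (log2 -1.49 against WT and -1.38 against Ctr; edgeR, adjusted p = 0.021 and 0.028). Plin5, a lipid droplet protein, was lower against Ctr, at log2 -3.99 (edgeR, adjusted p = 0.0080). Against WT it stood at log2 -1.92 (edgeR, adjusted p = 0.061). The Ctr muscles lay far apart for Plin5, with 34.85 scaled CPM in Ctr 1 and 6.3 in Ctr 2. The WT muscles had 4.739 and 5.16, and the DMD muscles 1.407, 1.805 and 0.7412.

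Of 12 regulators of oxidative genes, 3 were lower against WT, where 6.92% of all genes were, and 5 against Ctr, where 5.49% were, with 0 higher (median log2 -0.24 against WT and -1.002 against Ctr). The estrogen-related receptor Esrrb had 0.446, 0.401 and 0.741 scaled CPM in DMD muscles, 6.73 and 4.01 in WT muscles and 11.3 and 7.32 in Ctr muscles. It was lower in DMD muscles against WT (log2 -3.36; edgeR, adjusted p = 0.0019) and Ctr (log2 -4.15; edgeR, adjusted p = 0.0013). Its paralogue Esrrg, at under 2 CPM in every muscle, was lower against WT (log2 -2.07; edgeR, adjusted p = 0.026) and Ctr (log2 -2.16; edgeR, adjusted p = 0.026). The coactivator Ppargc1a was lower against Ctr (log2 -1.75; edgeR, adjusted p = 0.015) and stood at log2 -0.36 against WT (edgeR, adjusted p = 0.49). The Ctr muscles lay far apart for Ppargc1a, with 58.2 scaled CPM in Ctr 1 and 26.7 in Ctr 2. The WT muscles had 18.3 and 14.2, and the DMD muscles 9.69, 12.2 and 16.2, with DMD 3 above WT 2.

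**Figure D2:**
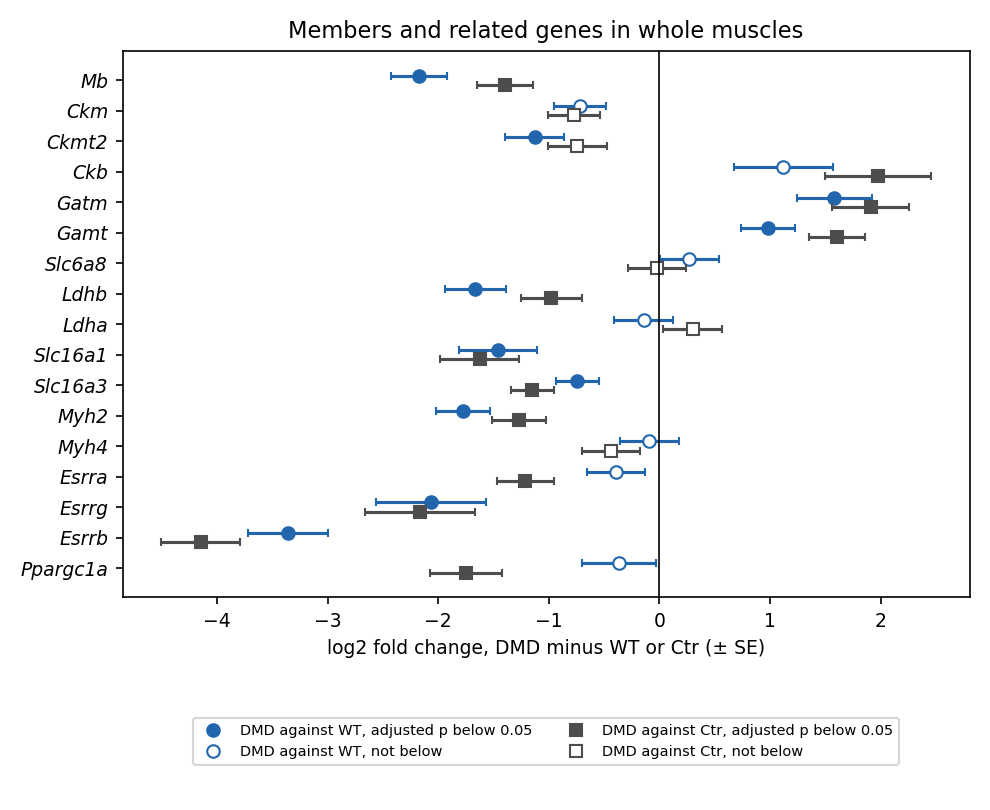
Log2 fold change ± SE of the members and related genes in whole muscles, DMD against WT (circles) and DMD against Ctr (squares); filled symbols had an edgeR adjusted p below 0.05. Mb, Ldhb, Slc16a1, Slc16a3, Myh2, Esrrg and Esrrb are filled left of 0 in both comparisons, and Gatm and Gamt are filled right of 0 in both.

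Along the section order, Mb and Ckmt2 were lower towards the last sections in every muscle and Ldhb in every muscle but DMD 3, and Ckm was not. Sections are numbered in the column names, and the labels do not say which end of the muscle comes first. Kept sections of each muscle were divided into a first, a middle and a last run of near equal number. The last run was set against the first. TMM was fitted anew to these runs, so their scaled CPM differ in scale from the whole-muscle values. Mb had 320, 724 and 568 scaled CPM in the last run of the DMD muscles, against 715, 869 and 690 in their first run. The WT muscles had 2666 and 2407 in the last run, against 3023 and 3251 in the first. The Ctr muscles had 1406 and 1220 in the last run, against 1990 and 1750 in the first. All 7 muscles were lower in the last run, DMD 1 by most (log2 -1.16). WT 1 differed least, at log2 -0.18, and at -0.083 in CPM without TMM scaling. Spearman's rho of Mb with position in WT 1 was -0.19.

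Ldhb had 8.40, 19.6 and 11.4 scaled CPM in the last run of the DMD muscles, against 20.8, 27.8 and 12.3 in their first run. It had 37.2 and 33.05 in the last run of the WT muscles, against 61.3 and 64.96 in the first, and 13.7 and 18.01 in the last run of the Ctr muscles, against 42.8 and 43.4 in the first. The difference ran from log2 -0.11 in DMD 3 to -1.65 in Ctr 1. In DMD 3 the levels were nearly equal: the CPM without TMM scaling was 11.3 in the last run and 11.4 in the first, and Spearman's rho of Ldhb with position over its 60 sections was 0.102. Ckmt2 had 248, 576 and 576 scaled CPM in the last run of the DMD muscles, against 538, 726 and 712 in the first. It had 959 and 923 in the last run of the WT muscles, against 1314 and 1438 in the first, and 696 and 757 in the last run of the Ctr muscles, against 1070 and 1074 in the first. By sign alone, Ldhb and Ckmt2 too were lower in 7 of 7 muscles, a pattern shown by 3.12% of genes.

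This contrast was planned as a description with no test. A test was added after its values were seen, because they ran the same way in every muscle, in a fit with 2 sums per muscle and the muscle as block. Its p-values, also those of the difference between groups and of the other genes along the order, were therefore obtained on the pattern that prompted the test and are no independent evidence for it. The log2 changes, last against first run, were -0.48 ± 0.09 for Mb (edgeR, adjusted p = 0.0045), -0.95 ± 0.12 for Ldhb (edgeR, adjusted p = 6.3e-05) and -0.57 ± 0.08 for Ckmt2 (edgeR, adjusted p = 0.00030). Thus 3 of the 4 members were lower, where 1.96% of 11501 genes were lower. These 3 calls held in each of the 12 alternatives run, with adjusted p up to 0.030 for Mb, 0.0015 for Ldhb and 0.0047 for Ckmt2. Ckm had 7741, 8459 and 7835 scaled CPM in the last run of the DMD muscles, against 8542, 7326 and 8703 in the first, and was higher in the last run in 4 of 7 muscles. Its log2 change was 0.05 ± 0.07 (edgeR, adjusted p = 0.85), and 0.19 without TMM scaling (edgeR, adjusted p = 0.026).

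The position effect was then compared between DMD muscles and the WT and Ctr muscles together. The differences of the log2 changes, DMD minus WT and Ctr, were -0.16 ± 0.18 for Mb (edgeR, adjusted p = 0.83), 0.36 ± 0.24 for Ldhb (edgeR, adjusted p = 0.69), -0.03 ± 0.16 for Ckmt2 (edgeR, adjusted p = 0.98) and -0.14 ± 0.14 for Ckm (edgeR, adjusted p = 0.80). None passed, where 0.0956% of genes did and 1004 genes had an unadjusted p under 0.05. Within the DMD muscles alone, where 0.0869% of genes passed, the log2 change was -0.57 for Mb (edgeR, adjusted p = 0.083), -0.75 for Ldhb (edgeR, adjusted p = 0.084) and -0.59 for Ckmt2 (edgeR, adjusted p = 0.067). Within the WT and Ctr muscles, where 1.45% passed, it was -0.41 for Mb (edgeR, adjusted p = 0.096), -1.11 for Ldhb (edgeR, adjusted p = 0.00024) and -0.55 for Ckmt2 (edgeR, adjusted p = 0.0071).

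**Figure D3:**
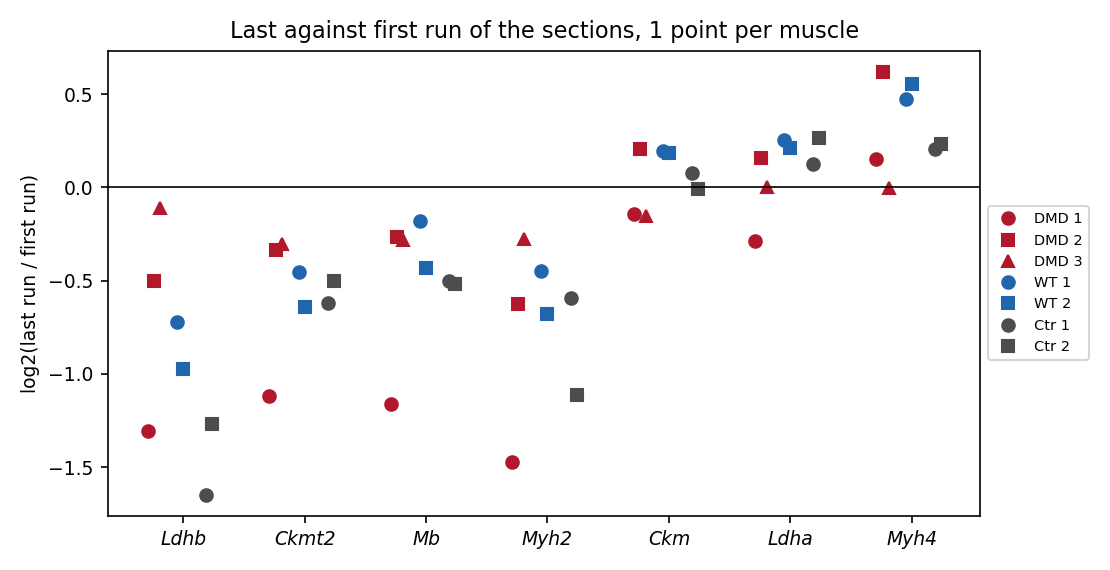
Log2 ratio of the last to the first run of the sections in each muscle (1 point per muscle; colours for DMD, WT and Ctr, symbols for replicates), for the members, Myh2, Ldha and Myh4. All 7 points lie below 0 for Ldhb, Ckmt2, Mb and Myh2, and 4 of 7 lie above 0 for Ckm.

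Other genes of oxidative metabolism were lower in the last run as well. Myh2 was lower (log2 -0.77; edgeR, adjusted p = 0.00015), as was Fabp3 (log2 -0.74; edgeR, adjusted p = 5.0e-06). The malate dehydrogenase Mdh1 and the aspartate aminotransferase Got1, cytosolic enzymes of the malate-aspartate shuttle, were lower at log2 -0.50 and -0.36 (edgeR, adjusted p = 0.0035 and 0.012). Lpl, which frees fatty acids from lipoproteins, was lower at log2 -0.62 (edgeR, adjusted p = 5.0e-06). In the lists, 7 of 16 mitochondrial oxidative genes, 4 of 8 genes of oxygen and lipid supply and 5 of 13 genes of lactate and pyruvate handling, Ldhb among them, were lower (median log2 -0.21, -0.31 and -0.23, beside 0.02 for all genes). Of all genes tested, 1.96% were lower in the last run. The list of lactate and pyruvate handling also held 1 gene that was higher, Slc16a3, at log2 0.35 (edgeR, adjusted p = 0.0027). Myh4 and Actn3, a structural protein of fast glycolytic fibres, were higher (log2 0.32 and 0.30; edgeR, adjusted p = 0.030 and 0.011), where 0.817% of genes were. In the same list of 10 fast fibre genes the 2X myosin Myh1 was lower (log2 -0.40; edgeR, adjusted p = 0.0089) and 7 passed in neither direction (median log2 0.05). Ldha stood at log2 0.10 (edgeR, adjusted p = 0.58), and 0 of 10 regulators of oxidative genes passed in edgeR, with 1 at an unadjusted p under 0.05.

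Markers of other tissues also differed along the order. The tendon list was higher in the last run in 4 of 7 tested genes and its sum was higher there in 7 of 7 muscles, for example 57.99 CPM in the last run against 16.1 in the first in DMD 3, and 60.8 against 11.2 in WT 1. All 5 erythroid genes, all 3 tested smooth muscle genes and 2 of 3 tested Schwann cell genes were lower in the last run. Of all genes tested, 0.817% were higher and 1.96% lower there. Macrophage markers summed to 2275 CPM in the last run of DMD 1, against 877 in its first run, to 1094 against 1223 in DMD 2 and to 216 against 166 in DMD 3. The fibrotic matrix sum was higher in the last run in 7 of 7 muscles, by log2 0.06 in DMD 2 to 1.25 in DMD 1, and 2 of its 8 genes, Col1a1 and Col1a2, were higher (log2 0.53 and 0.36; edgeR, adjusted p = 0.018 and 0.043). The part of these tissues in the members' profiles was not tested.

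With the kept sections of each muscle in 10 bins, the lowest bin of Mb, Ldhb and Ckmt2 was bin 9 or 10 in all 7 muscles. It was bin 10 in 5 muscles for Mb and in 6 each for Ldhb and Ckmt2. Myh2 had its lowest bin in the same range in all 7. The ratio of the highest to the lowest bin ran from 1.22 to 4.87 for Mb, 2.11 to 5.81 for Ldhb, 1.28 to 3.08 for Ckmt2 and 1.21 to 1.52 for Ckm. Mb in DMD 1 marked the upper end, with 218.8 CPM in bin 10 and 1065 CPM in bin 1. Ckm had its highest bin among the last 4 in all 7 muscles, as did Myh4. In DMD 3 the lowest bin lay at that end too, bin 9 for Ckm (6491 CPM) and bin 10 for Myh4 (9206 CPM). Bin values are CPM without TMM scaling. The share of all genes with their highest or lowest bin in these places is not given here.

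**Figure D4:**
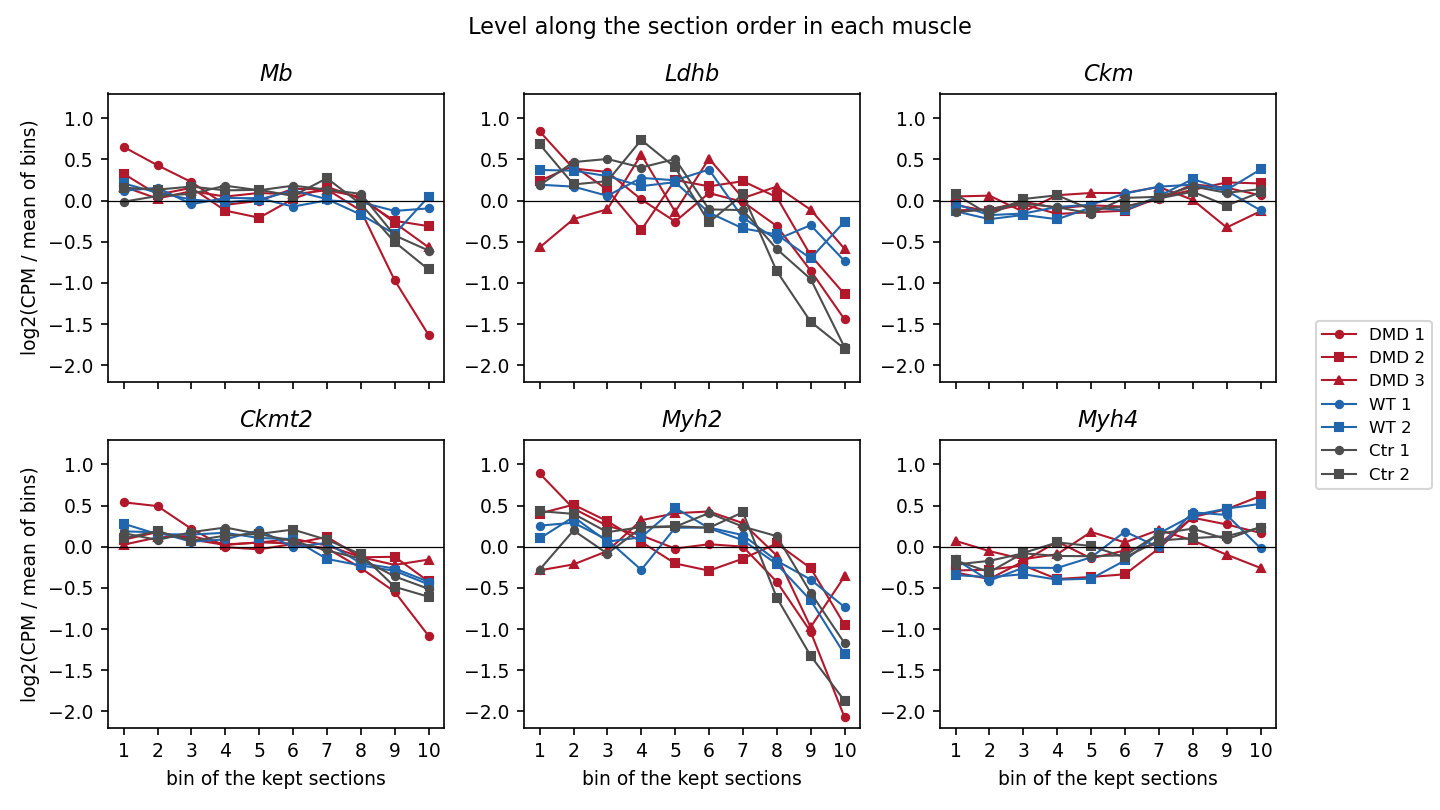
Level along the section order, as log2 of the CPM in each of 10 bins of the kept sections over the mean of the muscle's bins; 1 line per muscle, coloured by group, with replicates by symbol. The lines of Mb, Ldhb, Ckmt2 and Myh2 reach their lowest point in bin 9 or 10 in all 7 muscles, and those of Ckm and Myh4 reach their highest point in bins 7 to 10. In DMD 3 the lowest point of Ckm is in bin 9 and that of Myh4 in bin 10.

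Over single sections, Mb, Ldhb and Ckmt2 varied together. The Pearson correlation of log2(CPM + 10) over the 422 kept sections, computed within each muscle and averaged over 7 muscles, was 0.531 between Mb and Ckmt2, 0.499 between Ldhb and Ckmt2 and 0.473 between Mb and Ldhb. Each was positive in 7 of 7 muscles. Ckm had mean correlations of 0.058 with Mb, -0.174 with Ldhb and -0.228 with Ckmt2. Myh2 correlated with Ckmt2 (0.612), Mb (0.546) and Ldhb (0.483), and Ckm with Myh4 (0.666) and Ldha (0.423). Sections of a muscle share a library and position, and the mean correlation with section depth was -0.033 for Mb, 0.166 for Ldhb, -0.240 for Ckm and 0.332 for Ckmt2, so these are descriptions only. In DMD 1, the macrophage score correlated at -0.898 with Mb, -0.784 with Ldhb and -0.913 with Ckmt2 over 65 sections, while in DMD 2 and DMD 3 the 3 genes lay between -0.038 and 0.307.

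Counting error limits what single sections show for Ldhb. Its median count per section was 4 to 19, and its coefficient of variation over sections was 40.95% to 63.5%, where counting alone gives 27.7% to 54.02%. For Mb the coefficient was 14.1% to 36.4%, where counting gives 3.79% to 9.11%. Reads that map to several loci were divided by the authors. Of the non-zero section values in DMD and Ctr muscles, 73.8% were not whole for Mb and 12.6% for Ldhb.

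Among 2031 genes with a mean of at least 20 CPM in every group, the closest profiles to Mb over sections were Myh1 (mean r 0.592), Uqcrq (0.568), Got1 (0.565), Actn2 (0.562) and Fabp3 (0.552). For Ckmt2 they were Fabp3 (0.648), Myh2 (0.612), Mdh1 (0.597), Got1 (0.587) and H19 (0.568). For Ldhb they were Got1 (0.516), Ckmt2 (0.499), Myh2 (0.483), Mb (0.473) and Fabp3 (0.445). For Ckm they were Mybpc2 (0.675), Myh4 (0.666), Tcap (0.605), Eno3 (0.592) and Pvalb (0.585). Got1 and Fabp3 thus stood among the first 5 for Mb, Ckmt2 and Ldhb, and none of the first 5 for Ckm did.

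**Figure D5:**
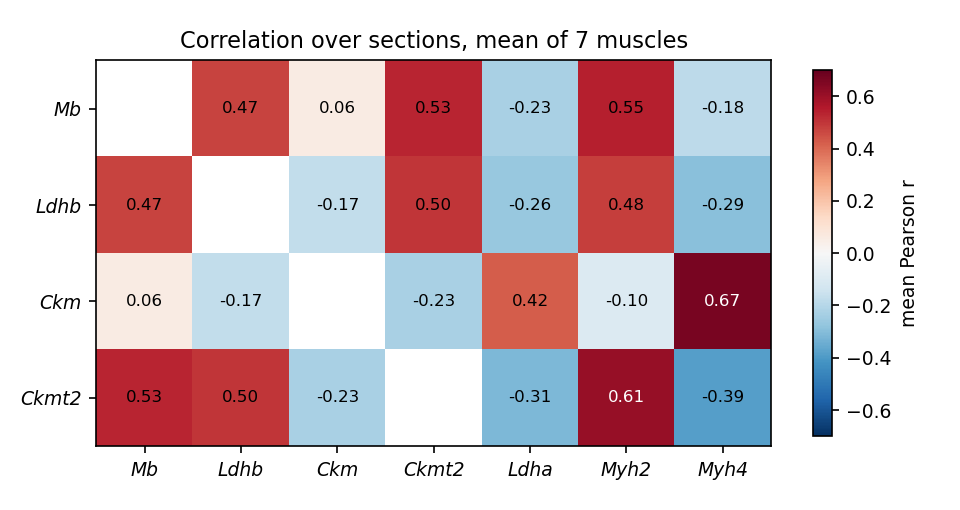
Mean Pearson correlation over kept sections (7 muscles, equal weight) between each member and the other members, Ldha, Myh2 and Myh4; red is positive and blue negative. Mb, Ldhb and Ckmt2 have values of 0.47 to 0.53 with each other, and Ckm has its highest value with Myh4, 0.67.

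Splits that do not depend on the direction of the order gave no calls for the members. Between the middle run and the outer runs the log2 changes were 0.08 for Mb (edgeR, adjusted p = 0.86), 0.15 for Ldhb (edgeR, adjusted p = 0.69), 0.12 for Ckmt2 (edgeR, adjusted p = 0.58) and -0.03 for Ckm (edgeR, adjusted p = 0.98), where 0.405% of 12855 genes passed. The difference of this effect between DMD and the WT and Ctr muscles passed for 0.0233% of genes, Ankrd1, Chrna1 and Cilp, named after their values were seen, and for 0 of 4 members (edgeR, adjusted p = 1 for each). Between the 20% of sections richest in oxidative fibre markers and the remaining sections, Mb differed by log2 0.08 (edgeR, adjusted p = 0.93), Ldhb by 0.11 (edgeR, adjusted p = 0.94), Ckmt2 by 0.06 (edgeR, adjusted p = 0.94) and Ckm by -0.02 (edgeR, adjusted p = 0.996). Only Csrp3, named after its value was seen, passed there (0.00776% of 12893 genes). That effect differed between DMD and the WT and Ctr muscles for 0 genes in edgeR, with 698 at an unadjusted p under 0.05, and for 0 in DESeq2, with 141. The marker score rests on 6 genes, of which Myh7 was at 0 to 0.305 scaled CPM in DMD muscles, 0.108 and 0.901 in WT muscles and 0.185 and 1.45 in Ctr muscles. Tnni1 was also low, as given above. Myh2, itself in the score, differed by log2 0.09 to 0.49 between rich and remaining sections. A split this weak in its own marker cannot decide whether the members follow Myh2-rich fibres. Over 13 alternatives the changes reached log2 0.23 for Mb, 0.34 for Ldhb and 0.16 for Ckmt2, with no call.

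In the DMD muscles the 20% of sections richest in regenerating fibre markers were set against the rest. TMM was fitted anew to these sums of the DMD muscles alone, so the scaled CPM cannot be set against the whole-muscle values above. Mb had 396.5, 882 and 826 scaled CPM in the rich sections, against 676, 1032 and 798 in the remaining sections. DMD 1 and DMD 2 were lower in the rich sections and DMD 3 was higher. The log2 change was -0.32 for Mb (edgeR, adjusted p = 0.80), -0.33 for Ldhb (edgeR, adjusted p = 0.80), -0.29 for Ckmt2 (edgeR, adjusted p = 0.81) and -0.03 for Ckm (edgeR, adjusted p = 0.999). Only St8sia2 and Vash2, named after their values were seen, passed (0.0162% of 12332 genes). In DMD 1, 9 of the 13 rich sections lay in the last run, and in DMD 2, 12 of 13 did, while in DMD 3 only 1 of 12 did, with 4 in the first run and 7 in the middle run.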

How the data were processed

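Polyadenylated RNA of single cryosections was barcoded per section, with primers carrying 8 bases of molecular identifier, per the labels' protocols. The authors deposited expected counts, in fractions, per gene and section, made with featureCounts 2.0.1 with strand, sharing multi-mapped and multi-overlapping reads in fractions, per the file headers. STAR 2.7.7a and GRCm38 are named in the submitters' processing notes. Column names carry the word dedup2, and how identifiers were collapsed is not given in the sources used here. Headers of the WT tables name another annotation file than those of the DMD and Ctr tables.

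Genes were matched by name. Sections with at least 1000 counts and at least 20% of the muscle's median were kept, summed per muscle and rounded to whole numbers. Total kept counts were 11181994 to 41407203 per muscle, and counting limits given cover counting error only. edgeR 4.0.16 (R 4.3.3; filterByExpr, TMM, quasi-likelihood test) was fitted to all 7 muscles, with Benjamini-Hochberg adjustment over all genes tested and calls at 0.05. Section splits used 2 sums per muscle with the muscle as block. The last against the first run was planned without a test, and its test and alternatives were added after its values were seen. Scaled CPM are counts relative to the TMM-scaled library. TMM was fitted anew for each split, so scaled CPM can be compared only within a split. DESeq2 1.42.0, limma 3.58.1, no TMM, no filter, mitochondrial genes left out, other splits and leaving out each muscle were alternatives. The limma fit took the log2 of the mean section CPM without TMM. The fits were tested on simulated data. Named genes were the members, fixed list genes and the 5 closest profiles per member. The members and lists were chosen with earlier results of these data known.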

Additional observations from a re-analysis of the deposited data

How the results depend on the processing

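Numbers of genes called moved with the settings. DMD against Ctr (1740 genes) gave 2999 without the low-count filter, 662 in limma with sections weighted equally, 683 with only the 2 groups fitted and 56 (without Ctr 1) to 3425 (without DMD 3) without 1 muscle, 583 without DMD 1, 770 without DMD 2 and 960 without Ctr 2. Without TMM its split was 1108 higher and 184 lower, beside 985 and 755. DMD against WT (2085 genes) gave 5148 without TMM (5004 higher and 144 lower, beside 1134 and 951), 3208 without the filter, 3765 in limma and 68 (without WT 2) to 3595 (without DMD 3) without 1 muscle, 78 without WT 1, 893 without DMD 1 and 1082 without DMD 2. WT against Ctr (50 genes) gave 475 in DESeq2, 213 without TMM (16 higher and 197 lower, beside 23 and 27), 860 without the filter, 242 in limma, 586 with only the 2 groups fitted and 2 (without WT 1 or WT 2), 3 (without Ctr 1) and 97 (without Ctr 2). Last against first run (319 genes) gave 801 without TMM (704 higher and 97 lower, beside 94 and 225), 145 with 4 runs in place of 3 and 98 (without WT 2) to 466 (without DMD 1) without 1 muscle, 130 without Ctr 1, 143 without Ctr 2 and 153 without WT 1. Its difference between DMD and the other muscles (11 genes) gave 7 in DESeq2 and with 4 runs, 6 without TMM, 82 without the filter and 2 (without WT 1) to 81 (without DMD 2) without 1 muscle. Middle against outer runs (52 genes) gave 23 in DESeq2, 81 without the filter and 32 to 53 without 1 muscle, and its difference (3 genes) gave 1 in DESeq2 and without TMM, 7 without the filter and 1 to 3 without 1 muscle. The oxidative split (1 gene) gave 10 without the filter, 2 without mitochondrial genes, 2 with Myh2 alone and 0 to 2 without 1 muscle. The regenerating split (2 genes) gave 1 in DESeq2, 14 without the filter, 1 for the highest 33% of sections and 4 to 226 without 1 muscle.

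For the members, Mb was lower against WT in all 13 alternatives run. Both the fit without TMM and the limma fit were unscaled. Ldhb against Ctr lost its call at log2 -0.63 without TMM, -0.80 in limma and -0.97 with only the 2 groups fitted, and Ldhb against WT at -0.88 without TMM. Ckmt2 against WT lost it at -0.39 without TMM and -0.40 in limma. Calls were gained for Ckm against Ctr in DESeq2 (-0.79) and without mitochondrial genes (-0.77), for Ckmt2 against Ctr in DESeq2 (-0.76) and for Ckm against WT in DESeq2 (-0.74). Signs turned for Ckm against WT without TMM (0.026) and for Ckmt2 in WT against Ctr without TMM (-0.068) and in limma (-0.10). Ckm gained a call in the last run without TMM (0.19). In splits where no member was called, signs turned for Ckm in the oxidative split without TMM (0.0027) and with Myh2 alone (0.019), for Ckm in the regenerating split without TMM (0.10), and in the oxidative difference for Mb (-0.052), Ckm (0.011) and Ckmt2 (-0.0065) at the highest 33% of sections and for Ldhb (0.25) and Ckm (0.13) with Myh2 alone. The cause was not tested.

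Without 1 muscle, log2 changes against Ctr ran from -1.57 to -1.23 for Mb, -1.31 to -0.81 for Ldhb, -0.93 to -0.61 for Ckm and -0.87 to -0.51 for Ckmt2. Against WT they ran from -2.001 to -1.49 for Ldhb, -0.78 to -0.65 for Ckm and -1.26 to -0.92 for Ckmt2. WT against Ctr ran from -0.21 to 0.11 for Ckm. Differences between DMD and the other muscles ran from -0.31 to 0.15 for Mb and -0.17 to 0.25 for Ckmt2 in the last run, -0.014 to 0.063 for Ckm in the middle run, and -0.018 to 0.11 for Mb and -0.029 to 0.0114 for Ckm in the oxidative split. Ckm in the regenerating split ran from -0.12 to 0.050.

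Replicate numbers are shared by the groups, and the labels do not say that they pair muscles. Deviations from group means of same-numbered muscles correlated over 13746 genes at 0.146 and 0.23 between DMD and Ctr, 0.00874 and 0.103 between DMD and WT and 0.0342 between WT and Ctr, so pairing was not established. With the replicate block, 4054 genes passed for DMD against Ctr, 4219 for DMD against WT and 919 for WT against Ctr, and Ckm (-0.82) and Ckmt2 (-0.91) against Ctr and Ckm (-0.77) against WT passed. Depth limited single sections most for Ldhb.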
